A study of Mus musculus with 22 samples.

Results

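Lung epithelial cells (ECs) of mice labelled CYP1B1-/- and of wildtype (WT) mice were compared after house dust mite (HDM) induced allergic airway inflammation. All protein-coding genes of the 4 libraries labelled CYP1B1-/- and the 4 WT libraries of the HDM table were taken, 8 of the 22 libraries sequenced, and 14161 of 21793 protein-coding genes had enough counts to be tested. The compared mice were CYP1B1-/- animals backcrossed to C57BL/6 and C57BL/6 WT animals over 7 weeks old. Beside them are set 4 libraries labelled AhR-/- (also backcrossed to C57BL/6), which received the same HDM treatment and shared the fit, and the libraries of naive mice at steady state, 3 labelled CYP1B1-/- and 4 WT. The 3 naive AhR-/- libraries are not described. The study used mice of both sexes, but the Y-linked gene Ddx3y had 0 counts in all 8 compared libraries. Both genotypes received the same treatment, 1 intranasal sensitization with Dermatophagoides farinae extract followed after 8 days by challenges on 4 consecutive days, and were killed 72 h after the last one. Live single CD45-EpCAM+ cells were sorted from digested lungs, so the cells had been chosen against the leukocyte marker CD45 and for the epithelial marker EpCAM, and the study's own description of the gate also leaves out cells with the endothelial marker CD31. Neither the position of the deletion in Cyp1b1 nor whether animals were pooled is given in the sources used here. Nothing in these sources ties a library to 1 animal, so p-values measure the spread between libraries.

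CYP1B1 is a cytochrome P450 monooxygenase that oxidizes polycyclic aromatic hydrocarbons, estrogens, retinoids and fatty acids. Its gene is a classical target of the aryl hydrocarbon receptor (AhR), a ligand-activated transcription factor, and the CYP1 enzymes in turn break down AhR ligands and so limit the signal. In the lung, the epithelium is the first barrier that HDM meets, and it answers with alarmins, chemokines and mucus.

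The 8 libraries held between 9654825 and 15512503 counts. A single predicted gene, Gm10800, took 16.1% to 68.2% of the counts in the libraries labelled CYP1B1-/- and 6.18% to 67.5% in WT, and over 50% in CYP1B1-/- replicates 1 and 2 and WT replicate 2. As a result, 3 counts of a protein-coding gene corresponded to between 0.085 and 0.714 CPM (counts scaled to the normalized size of the library). Depth gave p = 0.8 and the Gm10800 share p = 0.714 between the genotypes (exact permutation tests of the difference in means, two-sided, n = 4 per genotype, with 0.0286 the smallest p that 70 splits allow). Log2 CPM profiles correlated at 0.744 to 0.95 among the libraries labelled CYP1B1-/-, at 0.91 to 0.973 among WT and at 0.766 to 0.979 between the genotypes. Epcam was counted at 119 to 209 CPM in the libraries labelled CYP1B1-/- and at 95.6 to 188 CPM in WT. Ptprc, which encodes CD45, was nevertheless present in the sorted cells, at 175, 21.7, 411 and 432 CPM in the libraries labelled CYP1B1-/- and at 275, 187, 427 and 305 CPM in WT.

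The targeted gene was read first. Cyp1b1 (ENSMUSG00000024087, GRCm38 chromosome 17, 79701537 to 79715061, minus strand) was counted 47, 47, 99 and 88 times in the libraries labelled CYP1B1-/-, which corresponds to 8.26, 11.2, 3.34 and 3.33 CPM. In WT, the raw counts were 20, 9, 11 and 36, or 0.567, 2.04, 1.12 and 1.93 CPM. Every library labelled CYP1B1-/- was thus above every WT library. The log2 fold change of the libraries labelled CYP1B1-/- over WT was 2.22 (standard error 0.50, 95% interval 1.15 to 3.30, unadjusted p = 0.00065, adjusted p = 0.999 in edgeR's quasi-likelihood test). This goes against the label if intact mRNA is meant, and a count summed over all exons cannot tell a transcript with a deleted part from an intact one. In the steady-state table, which holds other libraries, Cyp1b1 was at 5.12, 7.6 and 8.05 CPM in the 3 libraries labelled CYP1B1-/- and at 1.81, 2.81, 1.18 and 0.843 CPM in WT, which gave 2.07 as the log2 fold change (standard error 0.47). The difference between the states was 0.01 on the log2 scale (standard error 1.02). The other family members were barely counted. Cyp1a1 had 6, 3, 6 and 4 counts in the libraries labelled CYP1B1-/- and 1, 0, 0 and 8 in WT, Cyp1a2 had between 0 and 5 counts in each of the 8 libraries, and neither passed the filter on low counts.

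The 120 bases before the Cyp1b1 start site (RefSeq, GRCm38.p6, chr17:79715062-79715181, minus strand, written 5′ to 3′ along the gene) are shown because AhR acts on this gene through the xenobiotic response element, whose core GCGTG reads CACGC on the other strand. Capitals mark the core, which begins 76 bases before the start site.
Cyp1b1: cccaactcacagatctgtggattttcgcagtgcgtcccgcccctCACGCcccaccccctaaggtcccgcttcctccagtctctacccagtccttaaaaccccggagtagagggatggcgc
The core is short and occurs on either strand within 250 bases before the start site in 28.2% of all 32851 RefSeq promoter sequences, so the match describes the letters only.

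**Figure D1:**
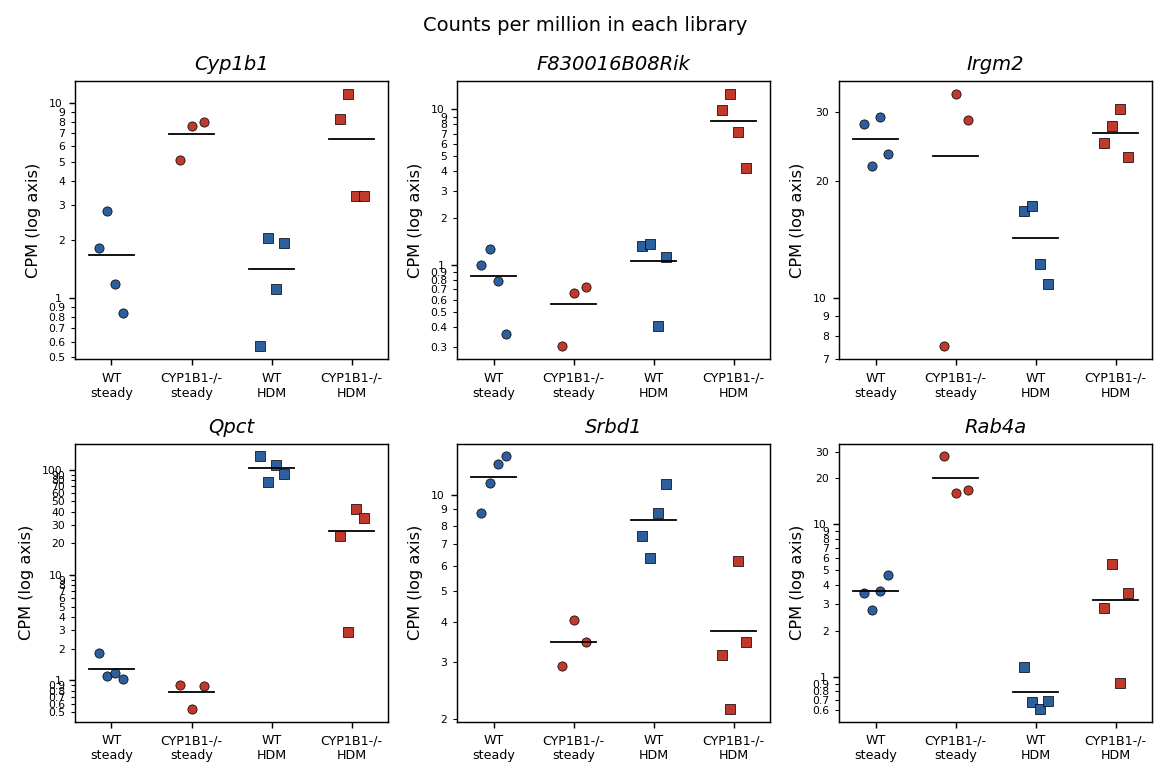
CPM on log axes for 6 genes in each library of both tables (circles, steady state, squares, after HDM, blue, WT, red, libraries labelled CYP1B1-/-, black line, mean of the group). Cyp1b1 and Rab4a have higher means and Srbd1 and Qpct lower means in the libraries labelled CYP1B1-/- of both tables, whereas F830016B08Rik lies at 4.2 to 12.6 against 0.408 to 1.36 CPM after HDM and overlaps at steady state.

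Across all genes, 0 of 14161 passed the adjusted threshold of 0.05 between the libraries labelled CYP1B1-/- and WT after HDM (edgeR quasi-likelihood test, 0% called), and the lowest adjusted p was 0.999. An unadjusted p under 0.05 was reached by 233 genes (1.65%), 182 of them higher (1.29%) and 51 lower (0.36%) in the libraries labelled CYP1B1-/-. This share was below the fraction of 0.05 that evenly spread p-values would give. The likelihood ratio test of edgeR and DESeq2 each called 1 gene, F830016B08Rik, while limma voom called 0 and had 795 genes at an unadjusted p under 0.05. For 77 of the 14161 genes all 4 libraries labelled CYP1B1-/- lay above all WT libraries (0.544%), and for 92 they lay below (0.65%). The 95% interval of the log2 fold change lay within -1 to 1 for 6550 genes (46.3%) and within -2 to 2 for 11766 (83.1%). The 233 genes became 732 without CYP1B1-/- replicate 3, 366 without WT replicate 2, 147 without CYP1B1-/- replicate 2, 129 without WT replicate 1 and 118 without WT replicate 3. Against the same WT libraries, 3129 genes (22.1%) passed the adjusted threshold in the libraries labelled AhR-/-, 1305 higher (9.22%) and 1824 lower (12.9%). Since both comparisons share the WT libraries, AhR-/- values are given below only beside those of CYP1B1-/-.

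Of the 10 genes of lowest p in the higher direction, 3 were interferon-inducible GTPases, F830016B08Rik, Gm4951 and Irgm2. These immunity-related (IRG) and guanylate-binding (GBP) proteins assemble on the vacuoles of intracellular pathogens, and their transcription is turned on by interferon-γ. Of the 24 members annotated, 23 were tested. The list was chosen with earlier results of these data known and holds the 3 genes just named, so its counts describe it and are no separate support. After HDM, 11 of them had an unadjusted p under 0.05 in edgeR and all 11 were higher in the libraries labelled CYP1B1-/-, 47.8% of the list against 1.29% of all genes, and 0 were lower. For 22 of 23 the log2 fold change was above 0, with a median of 0.81 against -0.01 over all genes. In 8 members the groups did not overlap, with the libraries labelled CYP1B1-/- above WT, as in 0.544% of all genes. The summed level of the list was 315, 276, 535 and 372 CPM in the libraries labelled CYP1B1-/- and 262, 184, 212 and 214 CPM in WT, which does not overlap either, and 64.4 to 199 CPM in the libraries labelled AhR-/-. None of the 23 passed the adjusted threshold of the quasi-likelihood test.

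F830016B08Rik, an IRG gene of chromosome 18, had the lowest p of all genes. It was counted at 9.84, 12.6, 7.18 and 4.2 CPM in the libraries labelled CYP1B1-/- and at 1.33, 1.36, 0.408 and 1.13 CPM in WT. The groups did not overlap, and the log2 difference was 2.96 (standard error 0.65, 95% interval 1.55 to 4.37, unadjusted p = 0.000584 and adjusted p = 0.999 in the quasi-likelihood test of edgeR). Over the alternatives in which it was tested the log2 fold change ranged from 2.54 to 3.19. Its neighbour Gm4951, another IRG gene, was at 4.39, 3.33, 4.14 and 2 CPM in the libraries labelled CYP1B1-/- and at 1.33, 0.681, 0.714 and 1.02 CPM in WT, again without overlap (log2 fold change 1.81, standard error 0.42). Iigp1, which encodes the effector GTPase Irga6, was at 30.2, 48.3, 31.2 and 18.2 CPM against 16.2, 10.9, 8.06 and 6.91 CPM (log2 fold change 1.59, standard error 0.53). All 3 lie in 1 cluster with Gm4841, whose groups overlapped (log2 fold change 0.65, standard error 0.64). Smim3 and Dctn4, the next genes beside this cluster, had log2 fold changes of -0.13 (standard error 0.32) and -0.11 (standard error 0.19).

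On chromosome 11, Irgm2, a regulatory IRG protein that keeps the effectors off the cell's own membranes, was at 25, 27.6, 30.5 and 23 CPM in the libraries labelled CYP1B1-/- and at 16.7, 17.3, 12.2 and 10.9 CPM in WT. The spread within groups was small here and the groups were apart (log2 fold change 0.90, standard error 0.23, unadjusted p = 0.00212, edgeR). Igtp, a second regulatory member, was at 19.3, 19.7, 28.9 and 20.3 CPM against 18.7, 16.3, 10.2 and 9.8 CPM (log2 fold change 0.69, standard error 0.25), and 8.01% of its exon bases lie in exons of Irgm2 on the same strand. Tgtp1, an effector, was at 14.9, 12.4, 16.5 and 9.38 CPM against 9.15, 3.86, 2.86 and 4.82 CPM (log2 fold change 1.32, standard error 0.54). Most reads cannot tell Tgtp1 from near-identical genes such as Tgtp2, since 81.2% of its 50-base stretches also occur in transcripts of other genes, and its value is uncertain for that reason. The same holds for Gbp6 with 70.7%, Tgtp2 with 86.6%, Gbp10 with 84.1%, 9930111J21Rik1 with 82.9% and 9930111J21Rik2 with 59.2%. Counts of list members are therefore not all separate observations. By contrast, the share was 1.66% for F830016B08Rik, 4.62% for Gm4951 and 7.77% for Irgm2.

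The GBP genes of chromosome 5 had log2 fold changes of 1.42 (Gbp6), 0.98 (Gbp4), 0.94 (Gbp8) and 0.78 (Gbp9), and those of chromosome 3 of 0.86 (Gbp3), 0.84 (Gbp7), 0.81 (Gbp5) and 0.81 (Gbp2), with standard errors between 0.34 and 0.54. Gbp4 was at 9.84, 13.1, 21 and 14.4 CPM in the libraries labelled CYP1B1-/- and at 7.48, 8.4, 5.81 and 8.2 CPM in WT, without overlap. Gbp8 was at 17.6, 16.9, 22.4 and 18.7 CPM against 13.4, 10.4, 7.95 and 7.77 CPM, also without overlap. Mx1, a dynamin-like GTPase induced mainly by type I and III interferons, was the one member below 0, at -0.13 (standard error 0.57).

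The promoters of 4 members on chromosome 11 are shown because they carry the elements through which interferons act. These are the γ-activated sequence, searched as TTCNNNGAA, and the interferon-stimulated response element, searched as GAAA and, 2 bases further on, another GAAA, on either strand. Each line gives the 120 bases before the start site in the direction of the gene (RefSeq, GRCm38.p6), with both elements in capitals. They stand at chr11:58214857-58214976 (plus strand) for Irgm2, chr11:58199436-58199555 (plus) for Igtp, chr11:48992247-48992366 (minus) for Tgtp1 and chr11:49064213-49064332 (minus) for Tgtp2.
Irgm2: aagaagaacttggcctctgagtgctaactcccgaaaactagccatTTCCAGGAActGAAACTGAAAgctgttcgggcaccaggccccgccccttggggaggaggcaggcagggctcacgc
Igtp: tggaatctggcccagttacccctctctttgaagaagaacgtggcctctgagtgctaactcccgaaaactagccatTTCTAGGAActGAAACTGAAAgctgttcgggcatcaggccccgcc
Tgtp1: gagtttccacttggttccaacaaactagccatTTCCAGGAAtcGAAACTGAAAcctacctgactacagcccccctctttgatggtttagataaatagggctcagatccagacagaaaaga
Tgtp2: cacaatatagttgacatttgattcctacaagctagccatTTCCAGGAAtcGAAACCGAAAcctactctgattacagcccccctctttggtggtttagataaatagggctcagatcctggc
In all 4 promoters the γ-activated sequence stands just before the response element. Of the 14 list members with a RefSeq promoter sequence, 7 held both elements within 250 bases before the start site, namely Irgm2, Igtp, Tgtp1, Tgtp2, Gm12185, Gbp5 and Gbp7, against 0.332% of all promoters. The γ-activated sequence was found in 7.02% and the response element in 2.98% of all promoters, and the xenobiotic core in 1 of the 14. The printed promoters are much alike in sequence, so they are not separate observations.

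**Figure D2:**
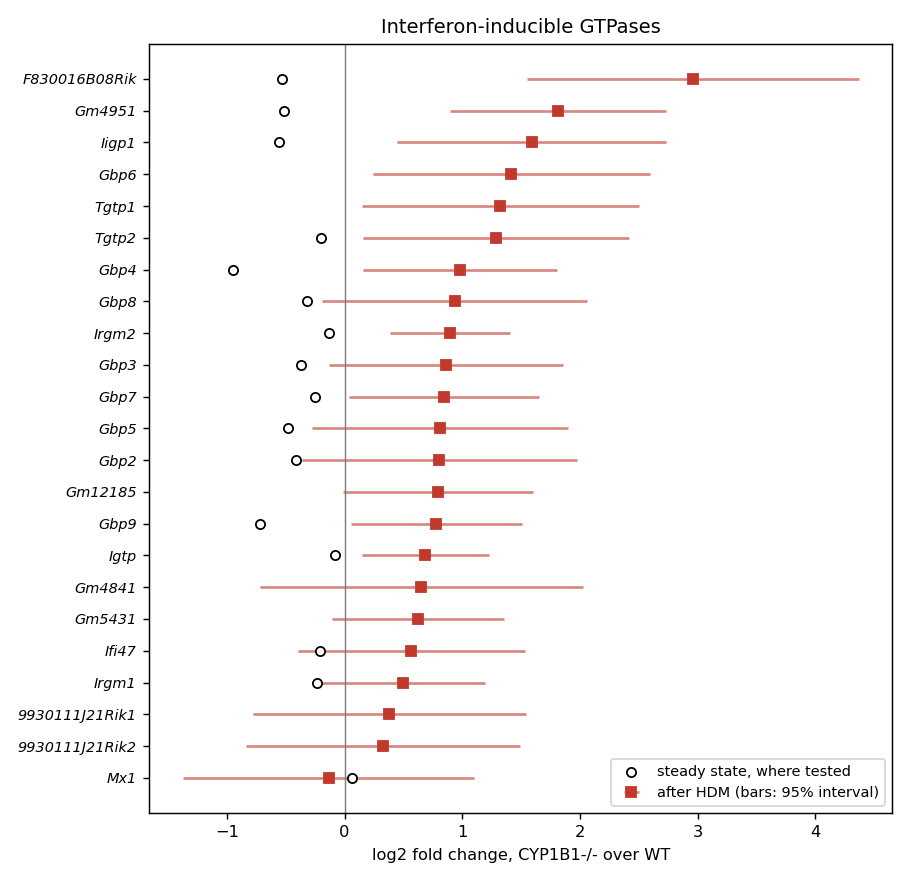
Log2 fold changes of the 23 tested interferon-inducible GTPases, libraries labelled CYP1B1-/- over WT, after HDM (red squares with 95% intervals) and at steady state (open circles, 16 genes). All but Mx1 lie above 0 after HDM, and the steady-state values have a median of -0.34.

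At steady state the list had a median log2 fold change of -0.34 over 16 tested members, with 0 of them at an unadjusted p under 0.05 in either direction in edgeR. F830016B08Rik was at 0.301, 0.667 and 0.724 CPM in the libraries labelled CYP1B1-/- and at 0.996, 1.27, 0.788 and 0.361 CPM in WT. The difference of its genotype effect between HDM and steady state was 3.31 on the log2 scale (standard error 0.89, unadjusted p = 0.00112, adjusted p = 1 in edgeR). An unadjusted p under 0.05 for this difference was found in 4 of 23 members, F830016B08Rik, Gm4951, Iigp1 and Gbp4, against 382 of 16639 genes (2.3%). In all, 0 genes passed the adjusted threshold for the difference in edgeR or DESeq2. Ddx3y was at 0 CPM in all 8 HDM libraries and at 27.9 to 126 CPM in the steady-state libraries of both genotypes, so state, sex and any difference in how the 2 tables were made cannot be told apart. In the libraries labelled AhR-/- after HDM, 0 of the 23 members were significantly higher and 3 significantly lower than in WT, beside 9.22% and 12.9% of all genes, and F830016B08Rik had a log2 fold change of 1.12 there (adjusted p = 0.216, edgeR). AhR-/- replicates 3 and 4 held Ddx3y at 53.8 and 52.2 CPM, and the part of sex in the AhR-/- values was not tested.

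The number of GTPases past an unadjusted p of 0.05 depended on single libraries. The 11 members became 5 without CYP1B1-/- replicate 3, 7 without WT replicate 2 and 6 without WT replicate 3 or 4, while the median stayed between 0.66 and 1.06 under all alternatives. With the level of the leukocyte markers as a covariate, 20 members had an unadjusted p under 0.05, and 20 of 24 had one without the libraries in which Gm10800 took over 50% of the counts.

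The type I interferon list, with Ifit1 and Isg15 among its 24 members, had a median of 0.08, and 2 members were higher at an unadjusted p under 0.05 (8.33% against 1.29% of all genes). Rtp4, a receptor-transporting protein induced by interferon, was at 17.9, 12.6, 16 and 21.3 CPM in the libraries labelled CYP1B1-/- and at 11.2, 7.94, 11.5 and 6.86 CPM in WT, without overlap (log2 fold change 0.85, standard error 0.33). Oas2, which makes the oligoadenylates that activate RNase L, had overlapping groups (log2 fold change 0.95, standard error 0.42). The median became -0.05 without CYP1B1-/- replicate 4, 0.35 without WT replicate 3 and 0.45 without the libraries in which Gm10800 took over 50% of the counts.

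A further list of 29 interferon-γ targets outside the GTPases was drawn up after these values were seen, and 28 of them were tested. The median was -0.06, 12 were above 0, and these became 0.11 and 21 without CYP1B1-/- replicate 2, 0.16 and 21 without the libraries in which Gm10800 took over 50% of the counts, 0.25 and 24 with the leukocyte markers as a covariate, and -0.19 and 8 without CYP1B1-/- replicate 3. Of the 28, 2 were at an unadjusted p under 0.05 (7.14%), both higher in the libraries labelled CYP1B1-/-, against 1.29% of all genes. The 2 became 1 without CYP1B1-/- replicate 4, WT replicate 1 or WT replicate 4, and 3 without CYP1B1-/- replicate 2. Ubd, which encodes the ubiquitin-like modifier FAT10, was at 4.92, 3.81, 3.64 and 3.9 CPM in the libraries labelled CYP1B1-/- and at 1.93, 0.227, 0.408 and 0.429 CPM in WT, without overlap (log2 fold change 2.27, standard error 0.73). Serping1, the complement C1 inhibitor, had overlapping groups (log2 fold change 1.67, standard error 0.63). The transcription factor Irf1 had a log2 fold change of 0.18 (standard error 0.38). The chemokines Cxcl9 and Cxcl10 were at 0.56 (standard error 0.75) and 0.18 (standard error 0.36), and the receptor chains Ifngr1 and Ifngr2 at -0.19 (standard error 0.37) and -0.15 (standard error 0.24). Ifng itself did not pass the filter.

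Among the same 10 genes of lowest p in the higher direction were 5 genes of cilia, the organelles with which ciliated airway cells move mucus, namely Cfap161, Cfap53, Cfap299, Ift57 and Ccdc17. Cfap161, a protein of the ciliary axoneme, was at 4.57, 4.28, 0.707 and 5.9 CPM in the libraries labelled CYP1B1-/- and at 0.623, 0.908, 0.612 and 1.34 CPM in WT (log2 fold change 2.12, standard error 0.56). Replicate 3 labelled CYP1B1-/- stayed within the WT range for this gene. Ift57, a subunit of the intraflagellar transport complex B, was at 6.68, 9.04, 8.22 and 7.11 CPM against 4.73, 3.86, 4.08 and 3.64 CPM, without overlap (log2 fold change 0.92, standard error 0.27). Cfap53 was at 2.64, 1.9, 1.18 and 2.42 CPM against 0.425, 0.454, 0.51 and 1.02 CPM, again without overlap (log2 fold change 1.70, standard error 0.52). The counts of Ccdc17 and Cfap299 are less certain, since 33.1% of the exon bases of Ccdc17 are covered by an antisense gene and 19.1% of those of Cfap299 by another gene of the same strand.

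To describe the whole class, 86 genes whose symbols begin with Cfap, Dnah, Dnaic, Rsph, Tekt, Bbs or Drc, or with Ift and a number, were collected after the leading genes had been seen. Of the 79 tested, 75 had a log2 fold change above 0 (48.4% of all genes did), the median was 0.61, 16 were higher at an unadjusted p under 0.05 (20.3% against 1.29% of all genes) and 0 were lower. Drc3, of the dynein regulatory complex, had 1.87 (standard error 0.58) and Rsph4a, a radial spoke protein, 1.48 (standard error 0.52). Ift88, a core transport protein, was one of 3 without overlap, at 7.91, 8.57, 7.11 and 12.1 CPM in the libraries labelled CYP1B1-/- and 5.44, 5.9, 6.83 and 6.96 CPM in WT (log2 fold change 0.51, standard error 0.22). The 16 became 26 without CYP1B1-/- replicate 3, 9 without CYP1B1-/- replicate 1, 5 without CYP1B1-/- replicate 4, 7 without WT replicate 1 and 10 without the libraries in which Gm10800 took over 50% of the counts, and the median stayed between 0.38 and 0.91 under all alternatives. At steady state the median of the class was -0.15, and of its 81 tested genes 0 were higher and 3 lower at an unadjusted p under 0.05, beside 2.32% and 3.48% of all genes in that table.

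All 12 markers of ciliated cells were above 0 with a median of 1.00, and 3 had an unadjusted p under 0.05 (1.29% of all genes were higher at this threshold), Ccdc153 (log2 fold change 1.65, standard error 0.56, and 1.04 without CYP1B1-/- replicate 4), Rsph1 (log2 fold change 1.44, standard error 0.58) and Cfap126 (log2 fold change 0.90, standard error 0.38). These 3 became 8 without CYP1B1-/- replicate 3, 1 without CYP1B1-/- replicate 1 or WT replicate 1 and 0 without CYP1B1-/- replicate 4. The summed levels overlapped, at 262, 580.4, 93.5 and 662 CPM in the libraries labelled CYP1B1-/- and 354, 577, 217 and 155 CPM in WT. In bulk libraries of this kind, the number of cells of a type and the RNA per cell cannot be told apart. Neuroendocrine markers also lay above 0 in 5 of 5 tested genes (median 1.59), 2 of them at an unadjusted p under 0.05, which became 4 without CYP1B1-/- replicate 3 or WT replicate 2 and 1 without the libraries in which Gm10800 took over 50% of the counts. Calca, which encodes the neuropeptide CGRP, was at 24.1, 27.1, 2.86 and 16.8 CPM in the libraries labelled CYP1B1-/- and at 5.95, 11.3, 3.16 and 3.54 CPM in WT (log2 fold change 1.59, standard error 0.57), and replicate 3 was below all 4 WT libraries. Resp18, a protein of secretory granules, had overlapping groups as well (log2 fold change 1.69, standard error 0.58). Both classes were also higher in the libraries labelled AhR-/- than in the same WT libraries after HDM. The medians there were 1.26 for the ciliated and 2.13 for the neuroendocrine markers, with 3 and 4 members significantly higher, beside 9.22% of all genes.

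**Figure D3:**
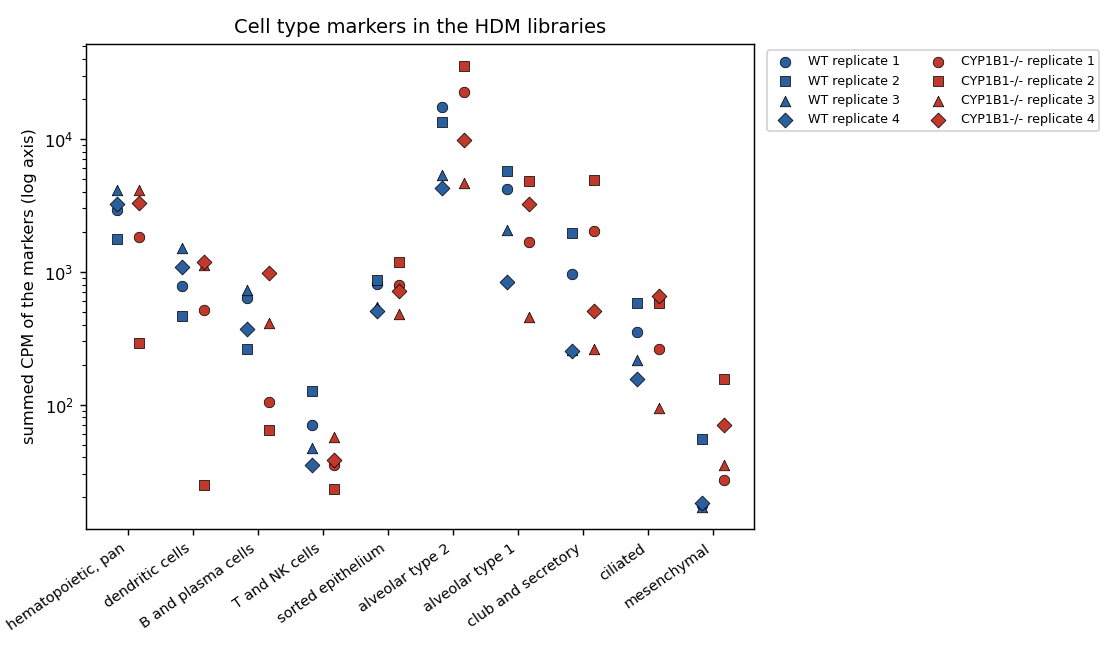
Summed CPM of cell type markers on a log axis in the 8 HDM libraries (blue, WT, red, labelled CYP1B1-/-, symbols, replicates). The groups overlap for all 10 marker sets shown, and CYP1B1-/- replicate 2 is lowest for the hematopoietic (289 CPM) and dendritic cell (24.7 CPM) sets and highest for the club cell (4887 CPM) and mesenchymal (155 CPM) sets.

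Among the other epithelial classes, all 12 alveolar type 2 markers were above 0 with a median of 0.78, and 0 had an unadjusted p under 0.05 in edgeR. Their sums were 22698, 35389.8, 4694 and 9786 CPM in the libraries labelled CYP1B1-/- and 17504, 13326, 5362 and 4265 CPM in WT, and the median became -0.28 without the libraries in which Gm10800 took over 50% of the counts. Spock2 (log2 fold change -0.99, standard error 0.64) and Pdpn (log2 fold change -0.54, standard error 0.55) had the lowest p of the 12 alveolar type 1 markers. Without CYP1B1-/- replicate 2 they were at -1.72 and -0.98, and without CYP1B1-/- replicate 3 at -0.66 and -0.24. All 12 markers were below 0 with a median of -0.41. With 1 library left out at a time this median lay between -0.91 (without CYP1B1-/- replicate 2) and -0.03 (without CYP1B1-/- replicate 3), and it was -0.06 without WT replicate 2, -0.21 without WT replicate 1, -0.26 without CYP1B1-/- replicate 1 and -0.73 without WT replicate 4. Club cell markers were above 0 in 9 of 10 with a median of 0.95, which became -0.41 without those same libraries and -0.02 without CYP1B1-/- replicate 2. Cyp2f2, the club cell P450 that activates naphthalene, was at 103, 196, 24.1 and 96.2 CPM in the libraries labelled CYP1B1-/- and at 39.3, 79.4, 17 and 28.7 CPM in WT, with overlap (log2 fold change 1.35, standard error 0.57, and 0.86 without CYP1B1-/- replicate 2). Of 4 tested basal cell genes, 3 were above 0 (median 1.11, lowest -0.18), and the keratin Krt15, the one at an unadjusted p under 0.05 (1.29% of all genes were higher at this p), was at 0.453 to 15.1 CPM over the 8 libraries (log2 fold change 2.12, standard error 0.90, and 1.25 without CYP1B1-/- replicate 4). For AhR-/- against the same WT libraries, the medians were 0.38 (alveolar type 2), 2.03 (alveolar type 1), 1.89 (club cell) and 0.10 (basal). Significantly higher there were 2 alveolar type 1 and 2 club cell markers, beside 9.22% of all genes, and 1 basal marker was lower, beside 12.9%.

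Markers of cells outside the epithelium were counted in every library. The sum of 12 pan-hematopoietic markers was 1817, 289, 4103 and 3286 CPM in the libraries labelled CYP1B1-/- and 2936, 1753, 4113 and 3235 CPM in WT, with all 12 log2 fold changes below 0 (median -0.38) and 0 at an unadjusted p under 0.05 in edgeR. Dendritic cell markers, including Flt3, Zbtb46 and Xcr1, were below 0 in 7 of 7 (median -0.44), and the MHC class II list, which antigen-presenting cells express most, in 11 of 11 (median -0.32). Over the alternatives these 3 medians ran from -1.01 to 0.11, from -1.15 to 0.01 and from -0.70 to 0.23. Without CYP1B1-/- replicate 3 they were -0.78, -0.96 and -0.54, and without CYP1B1-/- replicate 2 they were -0.00363, -0.06 and 0.03. T and NK cell markers had the lowest median of all lists, -1.28 over 11 genes, with overlapping sums of 23.3 to 57.4 CPM against 34.9 to 127 CPM, and a median of -0.59 without WT replicate 2 and -0.13 in limma voom. B and plasma cell markers had a median of -0.78 over 8 genes (-0.50 without WT replicate 3), macrophage and monocyte markers -0.28 over 11 with 4 of them above 0, eosinophil and neutrophil markers -0.27 over 8 and endothelial markers, among them Pecam1, which encodes the CD31 of the gate, 0.52 over 8. The last 3 medians turned to 0.10 without WT replicate 3, 0.20 without WT replicate 1 and -0.02 without CYP1B1-/- replicate 2. Unlike the median, the mean of the macrophage and monocyte sums was higher in the libraries labelled CYP1B1-/- (2788 against 1847 CPM), with overlapping values of 3071, 4930.5, 1269 and 1881 CPM in the libraries labelled CYP1B1-/- and 3108, 2011, 1174 and 1096 CPM in WT.

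Mesenchymal markers were above 0 in 8 of 8 (median 1.35), with 4 matrix genes at an unadjusted p under 0.05 against 1.29% of all genes, Col1a2 (log2 fold change 1.69, standard error 0.67), Dcn (log2 fold change 1.55, standard error 0.62, and 0.79 without CYP1B1-/- replicate 4), Col3a1 (log2 fold change 1.42, standard error 0.60) and Col1a1 (log2 fold change 1.58, standard error 0.67). Col1a2 was at 2.64, 20.9, 3.94 and 3.74 CPM in the libraries labelled CYP1B1-/- and at 1.13, 5.45, 1.94 and 1.66 CPM in WT, so that CYP1B1-/- replicate 2 stood apart from its group. Without that library the log2 fold change of Col1a2 was 0.61, the median of the list was 0.42 and 1 of the 8 genes was under this threshold. The count was also 1 without WT replicate 3, and it was 0 without WT replicate 1 or WT replicate 4 and 6 without WT replicate 2. For AhR-/- against the same WT libraries, the median of the list was 1.04, and 0 members were significantly higher. The part of these cell types in the gene differences above was not tested beyond the leukocyte covariate.

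Genes near Cyp1b1 were read as a group of their own. Of the 87 tested genes within 10 Mb, 3 had an unadjusted p under 0.05 in edgeR (3.45% against 1.65% of all genes), and the median log2 fold change was -0.05. Qpct, 0.637 Mb from Cyp1b1 (GRCm38 chromosome 17, 79051906 to 79090378), encodes glutaminyl cyclase, which forms the N-terminal pyroglutamate of chemokines and hormones. It was at 23.7, 2.86, 42.8 and 34.5 CPM in the libraries labelled CYP1B1-/- and at 134, 76.5, 110.4 and 91.4 CPM in WT (log2 fold change -1.97, standard error 0.71, unadjusted p = 0.0155, edgeR). Every library labelled CYP1B1-/- was below every WT library. Because Qpct was at only 0.534 to 1.81 CPM in the steady-state libraries of both genotypes, its level was set beside the leukocyte markers. It amounted to 1.31%, 0.989%, 1.04% and 1.05% of their sum in the libraries labelled CYP1B1-/- and to 4.56%, 4.36%, 2.69% and 2.83% in WT. With these markers as a covariate, the log2 fold change was -1.69 (unadjusted p = 0.000213, edgeR), it was -1.68 in the 8 compared libraries alone, and over all alternatives it ranged from -2.32 to -1.48. No gene passed the adjusted threshold in either covariate fit. At steady state, Qpct was at 0.904, 0.534 and 0.885 CPM against 1.81, 1.09, 1.18 and 1.02 CPM, without overlap (log2 fold change -0.72, standard error 0.61, unadjusted p = 0.255, edgeR). These values rest on 9, 8 and 11 counts against 20, 12, 12 and 17. In the libraries labelled AhR-/- after HDM, the log2 fold change of Qpct was -2.63 (adjusted p = 0.0304, edgeR).

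Srbd1, an S1 RNA-binding domain protein 6.36 Mb from Cyp1b1 (chromosome 17, 85984665 to 86145175), was at 3.16, 2.14, 6.2 and 3.48 CPM in the libraries labelled CYP1B1-/- and at 7.45, 6.36, 8.77 and 10.8 CPM in WT, without overlap (log2 fold change -1.11, standard error 0.30, unadjusted p = 0.00304, edgeR). The steady-state table, whose 2 called genes (0.0129% of 15547) were Srbd1 and Rab4a, gave -1.70 for Srbd1 (standard error 0.21, adjusted p = 0.0237, edgeR), from 2.91, 4.07 and 3.46 CPM against 8.78, 10.9, 12.5 and 13.2 CPM. Pkdcc, a secreted kinase 3.51 Mb away, was at 4.57, 5.23, 1.31 and 1.25 CPM against 0.878, 1.36, 0.816 and 1.02 CPM after HDM, with overlap (log2 fold change 1.57, standard error 0.56).

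Of the genes elsewhere, Rab4a and Ide had the same sign in both tables. Rab4a (chromosome 8), a small GTPase of endosome recycling, was at 2.81, 5.47, 0.91 and 3.56 CPM in the libraries labelled CYP1B1-/- and at 1.16, 0.681, 0.612 and 0.696 CPM in WT after HDM, where replicate 3 overlapped with WT (log2 fold change 1.88, standard error 0.50). At steady state it was at 27.9, 16 and 16.7 CPM against 3.53, 2.72, 3.64 and 4.64 CPM (log2 fold change 2.46, standard error 0.27, adjusted p = 0.0139, edgeR). Ide (chromosome 19), the insulin-degrading metalloprotease, was at 23, 20.7, 37 and 38.1 CPM against 38, 61.1, 75.2 and 88.4 CPM after HDM (log2 fold change -1.14, standard error 0.34), and replicate 4 labelled CYP1B1-/- reached just above the lowest WT library. It had a log2 fold change of -1.02 (standard error 0.25) at steady state, from 127, 107 and 102 CPM against 212, 207, 213 and 278 CPM. In the libraries labelled AhR-/- after HDM, Rab4a had a log2 fold change of 2.66 (adjusted p = 0.0261, edgeR) and Ide one of -1.29 (adjusted p = 0.0285, edgeR).

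Of 13567 genes tested in both tables, 215 had an unadjusted p under 0.05 after HDM and 741 at steady state. The sets shared 11 genes, 5.12% of the first and 1.48% of the second, beside 5.46% of all 13567 genes at steady state and 1.58% after HDM, so the overlap was no larger than these shares. The sign was the same for 6 of them, Cyp1b1, Srbd1, Rab4a, Ide, Adgrg6 and C2, and opposite for the other 5, Krt15, Pcsk1, Hist1h1c, Pim3 and Cdc25a.

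**Figure D4:**
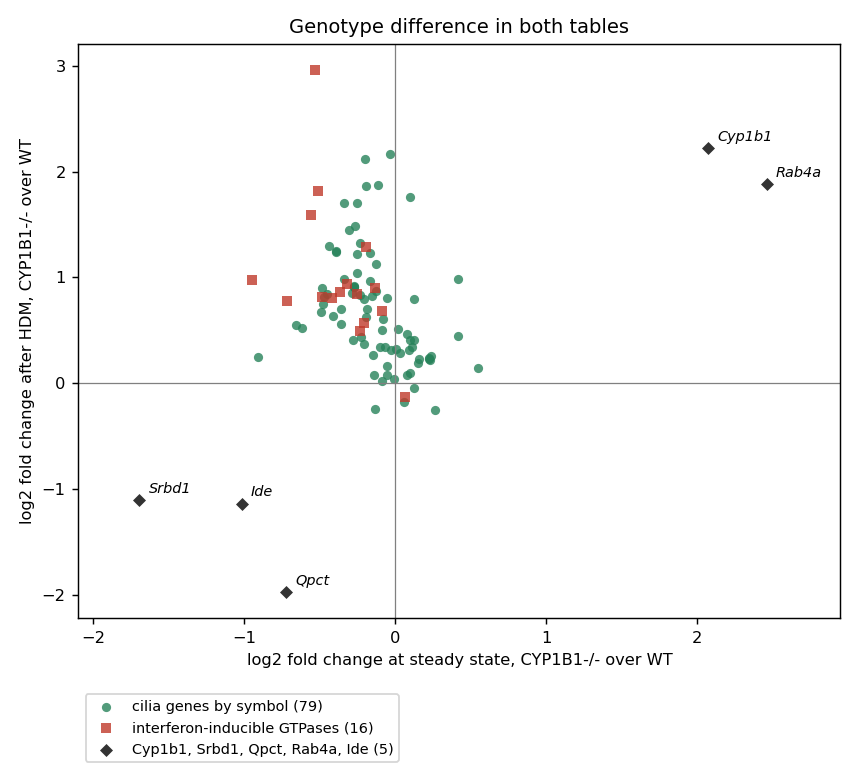
Log2 fold change of the libraries labelled CYP1B1-/- over WT after HDM against that at steady state, for 79 cilia genes (green), 16 interferon-inducible GTPases (red) and 5 single genes (black). Cyp1b1 and Rab4a lie far above 0 and Srbd1, Ide and Qpct below 0 on both axes, whereas the cilia genes and GTPases have medians above 0 after HDM and below 0 at steady state.

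The 10 genes of lowest p in the lower direction were Srbd1, Hist1h1c, Ide, Trib1, Gadd45b, Blk, Inf2, Fcrl5, Pim3 and Qpct. Hist1h1c, a linker histone, was at 18.3, 20.7, 18.5 and 14.1 CPM in the libraries labelled CYP1B1-/- and at 40.1, 25.2, 31.3 and 25.7 CPM in WT (log2 fold change -0.78, standard error 0.22). Trib1, a pseudokinase that targets C/EBP factors for degradation, was at 15.3, 12.6, 18.5 and 16.6 CPM against 21, 22.5, 41.1 and 28.7 CPM (log2 fold change -0.84, standard error 0.26, and -0.54 without WT replicate 3). Pim3, a serine/threonine kinase, was at 27.4, 37.8, 29.7 and 27.1 CPM against 43.7, 40, 58.9 and 51.8 CPM (log2 fold change -0.67, standard error 0.24). In these 3 genes the groups did not overlap, nor did they in Gadd45b, a stress-induced gene (log2 fold change -0.79, standard error 0.26), or in Inf2, an actin-nucleating formin (log2 fold change -0.63, standard error 0.22). Hist1h1c and Pim3 had the opposite sign at steady state, with log2 fold changes of 0.51 and 1.47.

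Blk and Fcrl5 are genes of B cells. Blk was at 0.238 to 0.775 CPM in the libraries labelled CYP1B1-/- against 1.34 to 2.52 CPM in WT (log2 fold change -1.66, standard error 0.57), and Fcrl5 at 0.476 to 0.741 against 1.42 to 3.06 CPM (log2 fold change -1.64, standard error 0.59). Beside them, the B and plasma cell marker sums were 105, 64.2, 415 and 979 CPM against 633, 263, 724 and 374 CPM, and their part in these differences was not tested. The immediate early genes, which respond within minutes to a stimulus, had 17 of 19 log2 fold changes below 0 and a median of -0.30, which became -0.51 without CYP1B1-/- replicate 4 and -0.22 without CYP1B1-/- replicate 2. Ier3 was the one at an unadjusted p under 0.05 (5.26% of the list against 1.65% of all genes, log2 fold change -0.89, standard error 0.38), and Fos was at 75.7 to 132 CPM against 119 to 269 CPM.

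The AhR pathway was looked at because CYP1B1 degrades AhR ligands. Ahr itself was at 9.14, 5.47, 12.6 and 8.85 CPM in the libraries labelled CYP1B1-/- and at 12.7, 12, 12 and 8.04 CPM in WT (log2 fold change -0.29, standard error 0.29, and -0.50 without CYP1B1-/- replicate 3 or -0.13 without CYP1B1-/- replicate 2). Tiparp, the ADP-ribosyltransferase that AhR induces and that dampens it, was at 26, 37.4, 24.5 and 51.4 CPM against 29.7, 38.1, 32.8 and 39.4 CPM (log2 fold change -0.01, standard error 0.38, 95% interval -0.83 to 0.82). Ahrr, the AhR repressor, was at 0.227 to 2.04 CPM over the 8 libraries (log2 fold change -0.06, standard error 0.79). Of 17 tested genes of AhR, its partners and its targets, 0 had an unadjusted p under 0.05 in edgeR (median -0.03). At steady state, Tiparp was at 674, 238 and 277 CPM against 104, 172, 138 and 227 CPM (log2 fold change 1.31, standard error 0.36, adjusted p = 0.822, edgeR), and its difference between the states was -1.32 (standard error 0.60, unadjusted p = 0.0381, edgeR). The 674 CPM came from replicate 2, in which mitochondrial genes took 0.0907% of the counts against 0.771% to 1.44% in the other steady-state libraries. Ddx3y in this library was at 27.9 CPM against 99.8 to 136 CPM in the others. The 238 CPM of replicate 3 lay close to the highest WT value.

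Tryptophan and kynurenine metabolism, which yields AhR ligands, had a median of -0.12 over 16 genes with 0 at an unadjusted p under 0.05 in edgeR. Its gene of lowest p was Haao, which makes the quinolinate precursor (log2 fold change -1.18, standard error 0.65). Among 35 estrogen, retinoid and eicosanoid enzymes, 3 were higher and 1 lower at an unadjusted p under 0.05 (11.4%, median 0.20), against 1.29% and 0.36% of all genes. The higher ones were Hpgd, which inactivates prostaglandins (log2 fold change 1.15, standard error 0.38, and 0.66 without CYP1B1-/- replicate 4), Cyp2j6, an epoxygenase (log2 fold change 1.18, standard error 0.50), and Cyp2f2. The lower one was Alox15, the 12/15-lipoxygenase, at 2.46, 0.714, 9.16 and 2.08 CPM in the libraries labelled CYP1B1-/- and 1.9, 4.09, 34.4 and 19 CPM in WT, with overlap (log2 fold change -1.93, standard error 0.81, and -1.03 without WT replicate 3 or -3.01 without CYP1B1-/- replicate 3). The median of the list was 0.03 without CYP1B1-/- replicate 4 and 0.34 without CYP1B1-/- replicate 3. Of 19 NRF2 antioxidant genes, 1 was at an unadjusted p under 0.05 (5.26% against 1.65% of all genes), the glutathione transferase Gstm1 (log2 fold change 1.20, standard error 0.47), and the median of the list was 0.04.

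**Figure D5:**
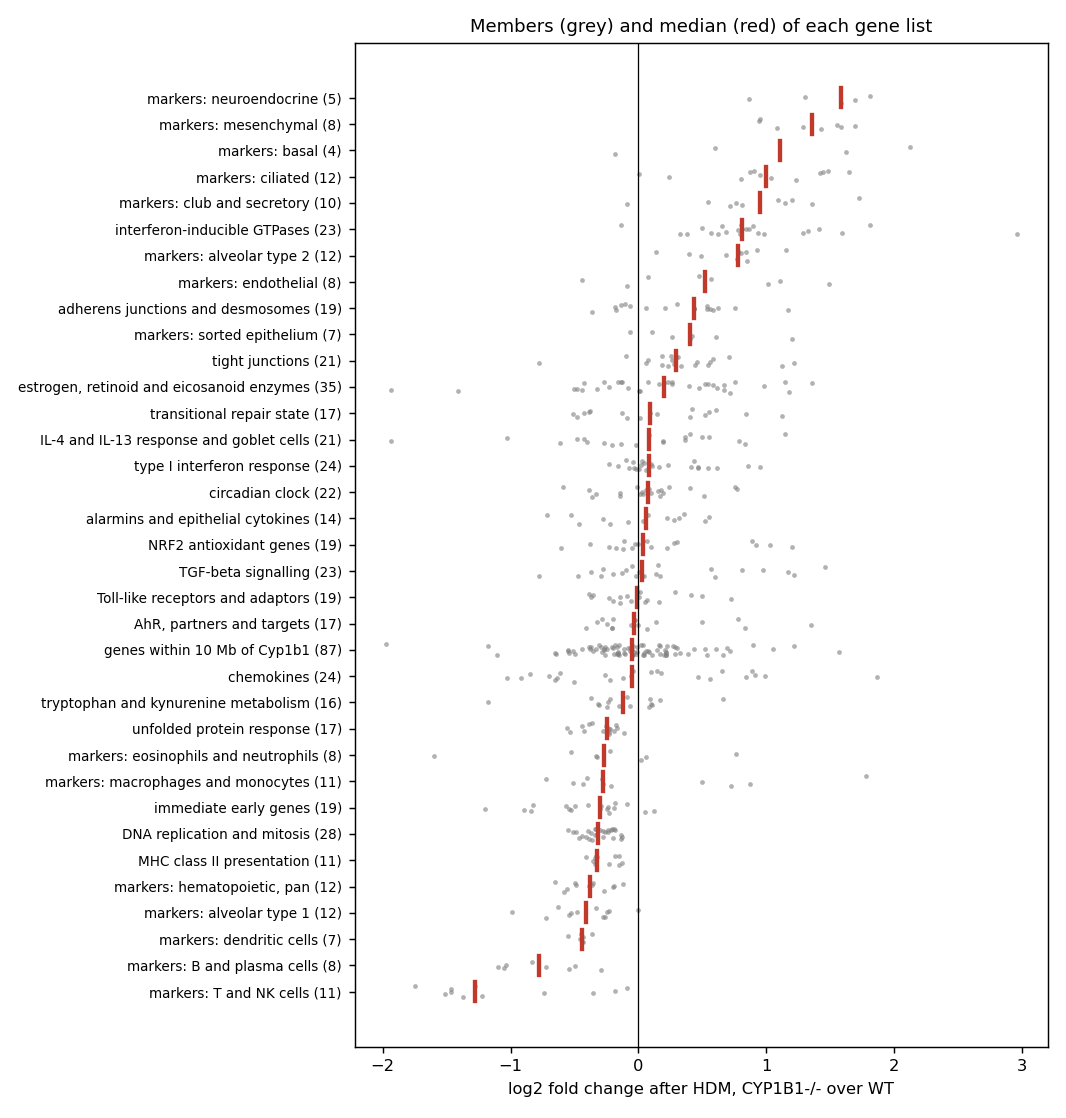
Log2 fold changes after HDM of the members (grey points) and the median (red bar) of each gene list except the CYP1 enzymes, of which Cyp1b1 alone was tested, libraries labelled CYP1B1-/- over WT, with the number of tested genes in parentheses. The medians shown run from -1.28 for T and NK cell markers to 1.59 for neuroendocrine markers, and those of AhR targets (-0.03), chemokines (-0.05) and Toll-like receptors (-0.01) lie near 0.

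Of the 36 lists compared, 18 medians changed sign and 31 changed sign or moved by over 1.5 times when single libraries were left out, the exceptions being the interferon-inducible GTPases, the ciliated, basal and neuroendocrine markers and the CYP1 enzymes. Genes of allergic inflammation were compared last. The IL-4 and IL-13 response and goblet cell list, with Muc5ac, Clca1 and Retnla, had a median of 0.08 over 21 genes with 1 gene, Alox15, at an unadjusted p under 0.05 (4.76% against 1.65% of all genes). Its sums spread widely in both genotypes, at 2100.5, 2733, 611 and 385 CPM in the libraries labelled CYP1B1-/- and 1473, 2307, 1112 and 587 CPM in WT, and its median became -1.14 without the libraries in which Gm10800 took over 50% of the counts. Alarmins and epithelial cytokines such as Il33 and Csf1 had a median of 0.06 over 14 genes, with 0 at an unadjusted p under 0.05 in edgeR and sums of 208 to 365 CPM against 170.4 to 329 CPM. Of 24 chemokines, 1 was at an unadjusted p under 0.05 (4.17% against 1.65% of all genes), the B cell attractant Cxcl13, at 0.879, 2.62, 0.741 and 1.1 CPM against 0.17, 0.227, 0.612 and 0.375 CPM, without overlap (log2 fold change 1.87, standard error 0.63). The median of the chemokines was -0.05. Toll-like receptors and adaptors, which sense HDM components, had a median of -0.01 over 19 genes and 0 at an unadjusted p under 0.05 in edgeR.

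Tight junction genes were above 0 in 19 of 21 with a median of 0.30, and adherens junction and desmosome genes in 13 of 19 with a median of 0.43. Dsg2, a desmosomal cadherin, was at 5.8, 8.8, 1.79 and 2.65 CPM in the libraries labelled CYP1B1-/- and at 1.7, 3.18, 1.22 and 2.2 CPM in WT, with overlap (log2 fold change 1.17, standard error 0.49, and 0.69 without CYP1B1-/- replicate 2). Medians of the junction lists became -0.16 and -0.11 under the alternatives that gave the lowest values. TGF-β signalling had a median of 0.03 over 23 genes, with the co-receptor Tgfbr3 (log2 fold change 1.17, standard error 0.44) and the matrix protein Ltbp2 (log2 fold change 1.46, standard error 0.66, and 0.47 without CYP1B1-/- replicate 2) at an unadjusted p under 0.05 (8.7% of the list against 1.65% of all genes). The circadian clock had a median of 0.07 over 22 genes and the transitional repair state, the stage between alveolar type 2 and type 1 cells, one of 0.09 over 17 genes. All 28 genes of DNA replication and mitosis and all 17 of the unfolded protein response were below 0, with medians of -0.32 and -0.25 and 0 of them at an unadjusted p under 0.05 in edgeR. The replication median was -0.72 without CYP1B1-/- replicate 3, -0.52 without WT replicate 2, -0.17 without WT replicate 4, -0.10 without WT replicate 3, -0.000183 without CYP1B1-/- replicate 2, and turned to 0.10 without the libraries in which Gm10800 took over 50% of the counts. That of the unfolded protein response was -0.38 without WT replicate 2, -0.15 without WT replicate 3, -0.14 without CYP1B1-/- replicate 2 and -0.06 without the Gm10800-rich libraries. Their sums overlapped between the genotypes, at 181 to 1503 CPM against 566 to 1367 CPM and at 1447 to 2644 CPM against 2006 to 3051 CPM. In both lists the lowest value came from CYP1B1-/- replicate 2, the library with the lowest hematopoietic sum.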

How the data were processed

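RNA of sorted lung ECs was made into full-length cDNA and tagmented libraries. Per the methods of the study, the authors aligned reads with GSNAP to mm10 and counted them per gene with featureCounts 2.0.0 and Ensembl release 99; the labels name bcl2fastq 2.19.1. The deposited values are raw counts per gene. Strand and multimapping settings are not given in the sources used here.

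Genes were matched to GENCODE M21 (54147 of 54373), and the 21793 protein-coding genes were kept. The 3 genotypes of the HDM table were fitted together with edgeR 4.0.16 in R 4.3.3 (TMM factors, filterByExpr with a minimum count of 10 and a minimum total of 15, robust quasi-likelihood test, Benjamini-Hochberg adjustment, threshold 0.05). The standard error was derived from the fold change and its F value. CPM use TMM library sizes. Total counts were 9654825 to 15512503, and this depth covers counting error only. DESeq2 1.42.0, limma 3.58.1 voom, other normalizations, filters, covariates, a replicate block and left-out replicates served as alternatives. The scripts were tested on simulated data.

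Named were the CYP1 and AhR genes and sort markers, in each direction the 10 genes with the lowest p, the 2 members of lowest p of each list with defining members, and genes within 10 Mb of Cyp1b1 at an unadjusted p under 0.05. Genes called at steady state by the quasi-likelihood test, or after HDM by the likelihood ratio test or DESeq2, were added. For some lists the values of single members are not printed here. The members and the 35 gene lists were chosen with earlier results of these data known; 3 further lists (interferon-γ targets, interferon-γ ligand and receptor chains, cilia genes) were chosen after the values were seen. The ligand and receptor chain list had a median of -0.23 over 4 tested genes, which ran from -0.41 to -0.03 without single libraries and was 0.07 without the libraries in which Gm10800 took over 50% of the counts.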

Additional observations from a re-analysis of the deposited data

Results flagged for a closer look

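In 162 groups of 4 libraries, 9 held a library farther from the other 3 than Dixon's 95% limit allows, and chance flags about 1 in 20 such groups. In the libraries labelled CYP1B1-/-, the highest Igtp value was 28.9 CPM with the other 3 at 19.3 to 20.3. The highest Col1a2 value was 20.9 CPM in replicate 2 with the others at 2.64 to 3.94. The lowest Blk value was 0.238 CPM with the others at 0.703 to 0.775. In WT, the highest Rab4a value was 1.16 CPM with the others at 0.612 to 0.696, and the highest Cfap53 value was 1.02 CPM with the others at 0.425 to 0.51. Ahr had a lowest WT value of 8.04 CPM with the others at 12 to 12.7, and Pecam1 a highest one of 14.2 CPM with the others at 5.47 to 6.91. The summed mesenchymal markers reached 55.4 CPM in 1 WT library with the others at 17 to 18.2. Total counts were 15512503 in 1 WT library with the others at 9654825 to 10319824.

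Immunoglobulin genes, which lie outside the protein-coding genes compared, took up to 1.05% of all counts in the libraries labelled CYP1B1-/- and up to 1.11% in WT. The share was above the steady-state maximum of 0.0196% in 3 of 4 libraries labelled CYP1B1-/- and in 4 of 4 WT libraries, with no difference detected between the genotypes (exact permutation test, two-sided, n = 4 per genotype, p = 0.6, smallest possible p 0.0286). The exception, CYP1B1-/- replicate 2 at 0.0183%, had 83.6% of its counts in 6 predicted genes, Gm10800 among them. These took 19.4% of the steady-state library with the maximum. Neither the shares nor the p were corrected for this dilution.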

How the results depend on the processing

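After HDM, the count of genes past the adjusted threshold was 0 in the quasi-likelihood fit and 1, F830016B08Rik, in the edgeR likelihood ratio test, in DESeq2 and in the likelihood ratio test of the 8 compared libraries; it was 0 under the other alternatives. At steady state, the 2 calls became 5 in DESeq2, 0 with the 7 compared libraries only, 0 with the replicate block and 0 to 4 when single replicates were left out. The difference between the states had 0 calls, and 0 to 1 when single replicates were left out. The labels do not say whether same-numbered libraries were handled together, and the main fit did not pair them. Same-numbered CYP1B1-/- and WT libraries correlated in their deviations from the group means at -0.521, 0.671, 0.602 and -0.29. The values were 0.729, -0.0782, -0.216 and 0.161 for WT with AhR-/-, and -0.478, -0.163, -0.311 and -0.309 for CYP1B1-/- with AhR-/-. Correlations of mixed sign over 4 numbers cannot decide whether libraries were prepared in pairs. The replicate block gave 0 calls after HDM, with 334 genes at an unadjusted p under 0.05, and 0 for the difference between the states, with 281.

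Of 92 named genes, 16 changed sign under at least 1 of 24 alternatives, and the cause was not tested. Tiparp became 0.017 with DESeq2, 0.017 with RLE normalization, 0.079 with upper-quartile normalization, 0.099 without a filter, 0.024 with 10 counts in every library, 0.010 in the 8 compared libraries, 0.012 in their likelihood ratio test, 0.0059 with all genes and 0.053 without dominant predicted genes. Ahrr became 0.71 in voom, 0.089 without a filter and 0.41 with the replicate block. Muc5b was -0.15 in voom. With the leukocyte covariate, Ptprc was 0.15, H2-DMb1 was 0.13, H2-Eb1 was 0.098 and Muc5b was -0.076, and with it in the 8 compared libraries Ptprc was 0.17, H2-DMb1 was 0.017, H2-Eb1 was 0.024, Muc5b was -0.70 and Scgb3a2 was -0.35. Without the libraries in which Gm10800 took over 50% of the counts, an alternative chosen after seeing the data, as was the covariate in the 8 libraries, Ptprc was 0.39, Tiparp was 0.22, Ahrr was 0.56, Ahr was 0.029, H2-DMb1 was 0.047, H2-Eb1 was 0.015, Muc5b was -1.04, Npas2 was -0.0062, Clu was -0.012, Scgb3a2 was -0.48, Rac2 was 0.030, Zbtb46 was 0.013 and Cdh5 was -0.11.

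Leaving out single replicates gave log2 fold changes of -0.56 to 0.18 for Ptprc, -0.27 to 0.13 for Tiparp, -0.73 to 0.030 for Pecam1, -0.44 to 0.42 for Ahrr, -0.073 to 0.25 for Epcam, -0.31 to 1.83 for Muc5b, -0.014 to 2.82 for Scgb3a2 and -0.040 to 1.15 for C1qa. At the depth of the shallowest library, 3 counts correspond to 0.714 CPM, which limits what can be said of Cyp1a1, Cyp1a2 and other low genes.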

Other observations

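Of the 13 tested genes of the mitochondrial genome, which encode subunits of the respiratory chain and the ATP synthase, 12 had a log2 fold change above 0 in the libraries labelled CYP1B1-/-, and 4 were higher at an unadjusted p under 0.05 in edgeR. Over all genes, 48.4% were above 0 and 1.29% were higher at this p. These genes were chosen after their values were seen. The complex I subunits mt-Nd4l, mt-Nd6 and mt-Nd4 had log2 fold changes of 1.23 (standard error 0.46), 0.69 (standard error 0.28) and 0.80 (standard error 0.36), and the complex III subunit mt-Cytb one of 0.99 (standard error 0.45). The groups did not overlap, as in 0.544% of all genes in this direction, for mt-Nd6, mt-Cytb and mt-Nd5, the last with 0.82 (standard error 0.39). None passed the adjusted threshold, and the share of mitochondrial genes in all counts was 0.622% to 2.49% in the libraries labelled CYP1B1-/- and 0.412% to 2.24% in WT.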
